A study of Mus musculus with 2 samples.

Results

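The arms of miR-122 and of the miR-192, miR-194 and miR-215 clusters were followed in small RNA of serum extracellular vesicles (EVs), small membrane-bound particles shed by cells and carried in blood. An arm is the mature miRNA cut from the 5′ side (5p) or the 3′ side (3p) of a hairpin precursor. The rows whose name, or a slash-separated part of it, was a listed arm were taken from both tables, which gave 9 members out of 1847 miRNAs, and each of the 9 was found in both. The libraries came from the serum of male mice aged 7 weeks at treatment, which were dosed with 100 mg/kg tamoxifen daily for 5 days and bled 3 days after the last dose. iFIRKO mice carried Adipoq-CreERT2, in which the adiponectin promoter of adipocytes drives a Cre that tamoxifen activates, and Insr flox/flox, the loxP-flanked insulin receptor alleles. The genotype of the control is labelled WT, whereas the study's methods describe it as the floxed alleles without Cre. Both groups received tamoxifen. Each group had 1 library, made per the study's methods from the pooled serum of several mice, so no spread between animals was measured and no test between genotypes was possible. No miRNA reports the loss of the receptor gene, which left the labels unchecked, and every direction is given for the iFIRKO-labelled library relative to the control-labelled library. For the miRNAs that the study followed up, and for most others, the deposited tables run in the opposite direction to the study's description. For the followed-up miRNAs that description also rests on quantitative RT-PCR of individual serum samples. An exchange of the labels is therefore possible and was not resolved here. If they were exchanged, each ratio between the libraries, and each change of a proportion, would turn into its inverse, while levels within a library and their proportions would stand under the other label.

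A miRNA guides the Argonaute complex to messenger RNAs that pair with its seed, the bases near its 5′ end, and lowers their translation and stability. miR-122 is the dominant miRNA of hepatocytes, where it is known for its part in cholesterol and lipid metabolism, and it is widely used as a serum marker of the liver. miR-192, miR-194 and miR-215 are made as pairs of hairpins from separate loci in liver, intestine and kidney, and miR-192 and miR-194 are known to be transcribed under hepatocyte nuclear factors. In most hairpins 1 arm, the guide, is loaded into Argonaute, and the other, the passenger, is mostly degraded.

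The sequences below show how the family is built, since the comparison between its members turns on shared seeds and shared loci. They were taken from RefSeq (GRCm38.p6), which held 7 of the 9 members, and the capitals mark the seed, bases 2 to 8 counted from the 5′ end.
miR-192-5p: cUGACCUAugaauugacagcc
miR-215-5p: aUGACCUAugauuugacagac
miR-194-5p: uGUAACAGcaacuccaugugga
miR-192-3p: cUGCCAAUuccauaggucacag
miR-215-3p: uCUGUCAUucuguaggccaau
miR-194-1-3p: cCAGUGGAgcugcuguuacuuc
miR-194-2-3p: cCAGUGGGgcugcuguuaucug

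miR-192-5p and miR-215-5p carried the same seed, UGACCUA, and no other listed miRNA had it among the 1596 of 1858 listed names that RefSeq gave a sequence for. The pair was identical at 18 of 21 bases, and counted from the 5′ end of miR-192-5p the differences were C1A, A12U and C20A. A read must therefore be assigned to 1 of them by 3 bases, and how the authors handled mismatches is not given in the sources used here. The seed of miR-194-5p, GUAACAG, was found in no other listed miRNA with a RefSeq sequence. The miR-194-1-3p and miR-194-2-3p arms were identical at 18 of 22 bases, and A8G, 1 of their 4 differences, falls within the seed, so these arms have different seeds.

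In the annotation (GRCm38) Mir194-2 lies at chr19:6264643-6264728 and Mir192 follows at chr19:6264844-6264932, both on the plus strand, with 115 bases between them and no other annotated gene over either. Mir194-1 lies at chr1:185313319-185313385 and Mir215 at chr1:185313581-185313692, both on the plus strand, with 195 bases between them. Both are antisense to an intron of Iars2, the mitochondrial isoleucyl-tRNA synthetase. The noncoding gene 2010103J01Rik covers them on their own strand, Mir194-1 in an intron and Mir215 in an exon. Both Mir194 hairpins give rise to the same miR-194-5p, so its count cannot be divided between the loci, and only the 3p arms of miR-194 tell them apart.

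The deposited values were whole counts divided by the depth of each library, which was 3817902 counts for the control-labelled library and 2233498 counts for the iFIRKO-labelled library. Levels are given as counts and as counts per 1000000 of the library (CPM). No count from 2 to 9 was present, so the lowest entry of each table was read as a count under 10 (2.62 and 4.48 CPM, respectively). All 9 members were above this floor in both libraries. The intervals given are 95% intervals from counting error only and do not cover differences between mice. Since RNA ligation and amplification favour some miRNAs over others, levels compared between miRNAs are less certain than ratios of 1 miRNA between libraries.

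On the deposited scale all 9 members had a higher share of the iFIRKO-labelled library, with ratios from 1.05 (miR-215-3p) to 2.41 (miR-194-2-3p) and a median log2 ratio of 0.45. The liver miRNA miR-122-5p stood at 1.71-fold, miR-192-5p and miR-194-5p at 1.36-fold and 1.37-fold, and both arms of miR-215 near 1. Across all 1847 miRNAs 88.1% were higher and the median log2 ratio was 0.88, so a direction shared by 9 members is not a result about them. At the study's threshold of 1.5-fold, 3 of the 9 members were higher (miR-122-5p, miR-194-1-3p and miR-194-2-3p) and 0 were lower, whereas 66.3% of all miRNAs were over 1.5-fold higher and 3.03% over 1.5-fold lower (1225 and 56 miRNAs, which exchanged labels would turn round). Together the 9 members made up 12.1% of the control-labelled library and 20.3% of the iFIRKO-labelled library, and nearly all of this was miR-122-5p. Without it the other 8 held 1.19% and 1.60%.

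**Figure D1:**
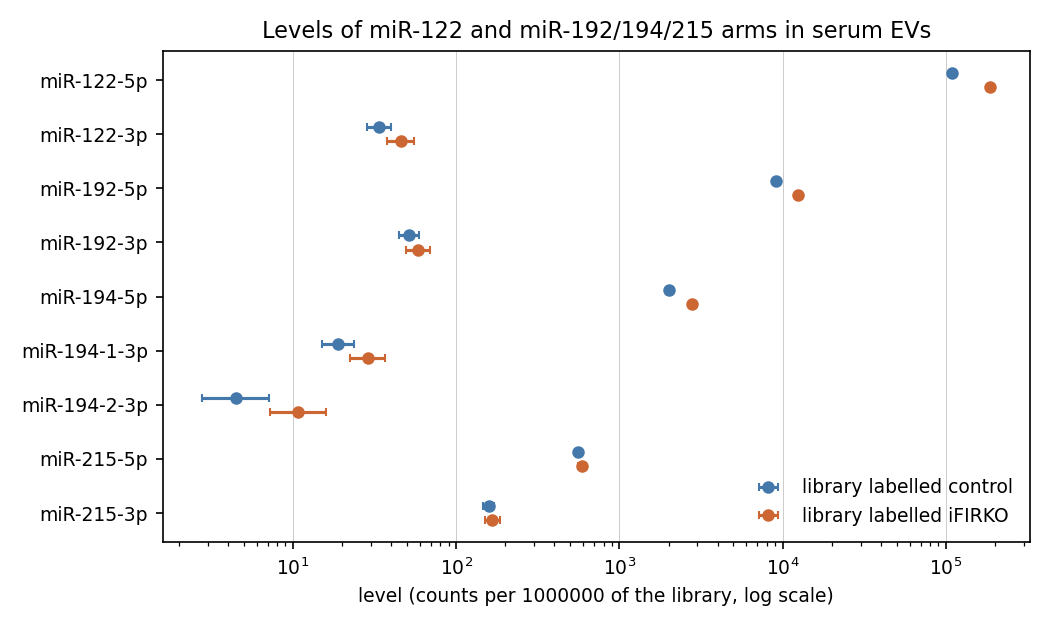
Level of each arm in counts per 1000000 (horizontal log axis) in the control-labelled library and the iFIRKO-labelled library, with bars for the 95% Wilson interval of counting error. The 5p arms span from 556 CPM (miR-215-5p) to 186751 CPM (miR-122-5p). The intervals of the libraries are apart for miR-122-5p, miR-192-5p, miR-194-5p and, narrowly, miR-194-2-3p.

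mmu-miR-122-5p had 417919 counts (109463 CPM) in the control-labelled library and 417108 counts (186751 CPM) in the iFIRKO-labelled library. The raw counts differed by 811, or 0.194%, while the depth differed 1.71-fold, so its ratio of 1.71 (95% interval 1.70 to 1.71) was that of the depths. With exchanged labels it would be 0.586. It ranked second of all miRNAs in both libraries, behind miR-16-5p, a miRNA of nearly all cells that is abundant in red blood cells. The third miRNA held only 3.24% of the control-labelled library (miR-486b-5p) and 3.52% of the iFIRKO-labelled library (miR-191-5p). Measured against miR-16-5p within each library, miR-122-5p went from 0.420 to 0.979 counts per miR-16-5p count, so that the 2 most abundant miRNAs were nearly level in the iFIRKO-labelled library.

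The 3p arm of Mir122 was rare. mmu-miR-122-3p had 129 counts (33.8 CPM) in the control-labelled library and 102 counts (45.7 CPM) in the iFIRKO-labelled library, giving a ratio of 1.35 (95% interval 1.03 to 1.77). This left 3240 and 4089 counts of the 5p arm for each count of the 3p arm. The comparison took 610 hairpins with both arms above the floor, whose names differ only in 5p and 3p. Among these it was the most unequal pair in both libraries. The median hairpin had 2.38 and 2.35 counts of the larger arm per count of the smaller. Arms named otherwise were left out, such as miR-16-5p (994113 and 426219 counts) and miR-16-1-3p (46 and 39 counts). The change in the ratio of miR-122-3p to miR-122-5p between the libraries was 0.792 (95% interval 0.605 to 1.04), and the interval included 1.

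mmu-miR-192-5p, the guide arm of Mir192, had 34570 counts (9055 CPM) in the control-labelled library and 27595 counts (12355 CPM) in the iFIRKO-labelled library, giving a ratio of 1.36 (95% interval 1.34 to 1.39). It rose from rank 22 to rank 16. Its passenger mmu-miR-192-3p had 197 counts (51.6 CPM) and 131 counts (58.7 CPM), giving a ratio of 1.14 whose 95% interval (0.904 to 1.42) included 1. miR-192-3p made up 0.567% (exact 95% interval 0.490 to 0.651) and 0.472% (0.395 to 0.560) of the counts of its hairpin, and the change of 0.833 between the libraries (95% interval 0.662 to 1.04) was not detectable at this depth.

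mmu-miR-194-5p had 7728 counts (2024 CPM) in the control-labelled library and 6206 counts (2779 CPM) in the iFIRKO-labelled library, giving a ratio of 1.37 (95% interval 1.33 to 1.42), and moved from rank 53 to rank 44. Its 3p arms were far rarer, and of these only miR-194-2-3p was below the median count of all miRNAs (37 and 47). mmu-miR-194-1-3p of the chromosome 1 locus had 72 counts (18.9 CPM) and 64 counts (28.7 CPM), giving a ratio of 1.52 (95% interval 1.07 to 2.16). mmu-miR-194-2-3p of the chromosome 19 locus had 17 counts (4.45 CPM) and 24 counts (10.7 CPM), giving a ratio of 2.41 (95% interval 1.24 to 4.79). Although past 1.5-fold, both intervals reached well below it.

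The 3p arms gave the only view of the locus behind miR-194-5p. miR-194-2-3p made up 19.1% (exact 95% interval 11.5 to 28.8) of the 3p counts of both loci in the control-labelled library and 27.3% (18.3 to 37.8) in the iFIRKO-labelled library, and the change in the ratio between the arms was 1.59 (95% interval 0.741 to 3.45). A shift between the loci was therefore not detectable at this depth. Within the chromosome 19 locus, the ratio of miR-192-3p to miR-194-2-3p changed by 0.471 (95% interval 0.228 to 0.956), with only 17 and 24 counts of miR-194-2-3p. Within the chromosome 1 locus, the ratio of miR-215-3p to miR-194-1-3p changed by 0.694 (95% interval 0.476 to 1.01), and the interval included 1. The order of the passengers did not follow that of the guides, since miR-192-5p of chromosome 19 was 16.3 and 21.0 times as abundant as miR-215-5p of chromosome 1, while miR-192-3p was 0.326 and 0.351 times as abundant as miR-215-3p.

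mmu-miR-215-5p, which carries the seed of miR-192-5p, had 2121 counts (556 CPM) in the control-labelled library and 1312 counts (587 CPM) in the iFIRKO-labelled library. Its ratio was 1.06, and the 95% interval (0.986 to 1.13) included 1. The other arm, mmu-miR-215-3p, had 605 counts (158 CPM) and 373 counts (167 CPM), giving a ratio of 1.05 (95% interval 0.924 to 1.20). Mir215 differed from the other hairpins of the members in that its 3p arm was plentiful. This arm held 22.2% (exact 95% interval 20.6 to 23.8) of the hairpin's counts in the control-labelled library and 22.1% (20.2 to 24.2) in the iFIRKO-labelled library. Its 3.51 and 3.52 counts of the 5p arm per 3p count stood above the medians of 2.38 and 2.35 over the 610 hairpins compared above. The change of 0.997 in the ratio of its arms (95% interval 0.858 to 1.16) was close to 1. Since miR-192-5p outnumbered miR-215-5p, the shared seed UGACCUA was carried by 0.961% and 1.29% of the 2 libraries, giving a ratio of 1.35.

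The next question was whether the guide arms moved together. The ratio of 2 miRNAs within a library does not depend on how libraries are scaled, and the 4 guide arms give 6 such pairs. miR-192-5p and miR-194-5p stood in nearly the same proportion in both libraries, with 4.47 and 4.45 counts of miR-192-5p per count of miR-194-5p, a change of 0.994 (95% interval 0.958 to 1.03). In the other 5 pairs the interval excluded 1. miR-122-5p gained 1.25-fold on miR-192-5p (95% interval 1.23 to 1.27), from 12.1 to 15.1 counts for each, and 1.24-fold on miR-194-5p (95% interval 1.20 to 1.29). It gained 1.61-fold on miR-215-5p (95% interval 1.51 to 1.73). miR-192-5p gained 1.29-fold on its seed relative miR-215-5p (95% interval 1.20 to 1.39) and miR-194-5p gained 1.30-fold on it (95% interval 1.20 to 1.40). The guides thus stood in the order miR-122-5p, then miR-192-5p and miR-194-5p, which could not be told apart, then miR-215-5p. The order compares 2 libraries and not the genotypes.

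**Figure D2:**
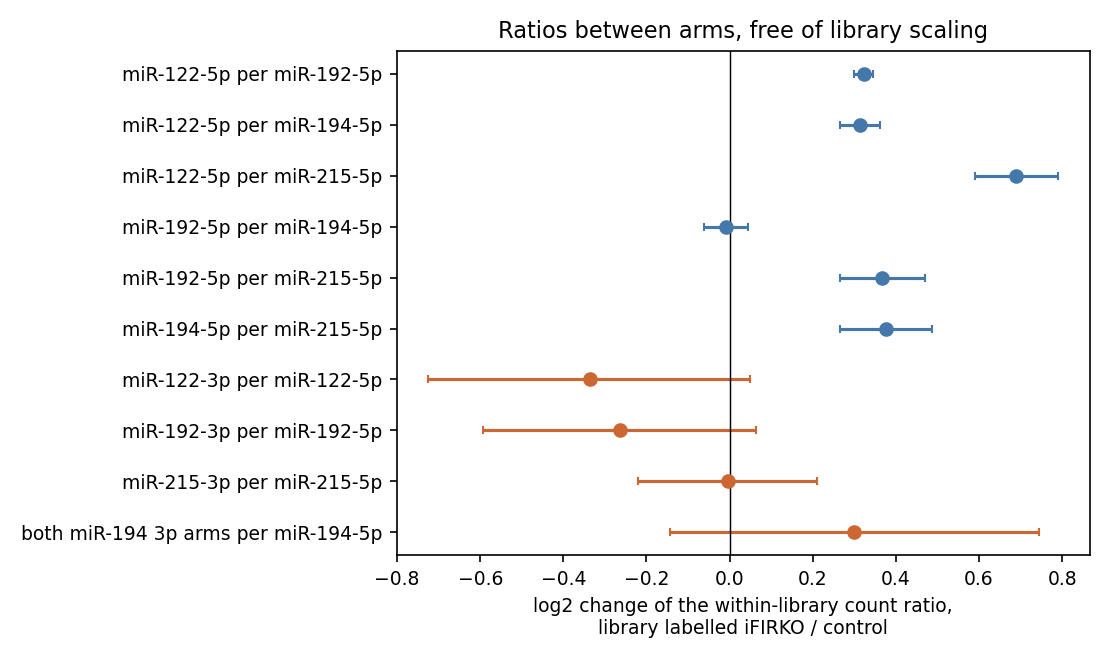
Change of the count ratio between 2 arms from the control-labelled library to the iFIRKO-labelled library (horizontal axis, log2 scale, 0 meaning no change), with conditional exact 95% intervals of counting error, for the 6 pairs of guide arms (blue) and for the 3p arms against the 5p arm of their hairpins (orange). The interval covers 0 for miR-192-5p per miR-194-5p and for all 4 arm ratios.

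Abundance set the background for each member. Of the 118 miRNAs with a mean count over 1000, only 40.7% were higher in the iFIRKO-labelled library and the median log2 ratio was -0.07, while this median was 0.53 for the 302 miRNAs from 100 to 1000 and the 1350 miRNAs from 10 to 100 reached 1.01. All 4 guide arms belong to the first class. In it 2.54% were over 1.5-fold higher, that is 3 miRNAs, namely miR-328-3p, miR-6377 and miR-122-5p, and 9.32% (11 miRNAs) were over 1.5-fold lower. miR-122-5p, miR-194-5p and miR-192-5p ranked 3, 4 and 5 of the 118 by ratio, and miR-215-5p ranked 39. With exchanged labels these ranks would count from the lowest ratio. In contrast, the passengers lay in classes in which 47% (100 to 1000 counts) and 76.7% (10 to 100 counts) were over 1.5-fold higher. miR-122-3p, miR-192-3p and miR-215-3p ranked 166, 208 and 226 of 302, and miR-194-1-3p and miR-194-2-3p ranked 1019 and 429 of 1350. Only miR-194-2-3p was above the median of its class among the 5 passengers.

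**Figure D3:**
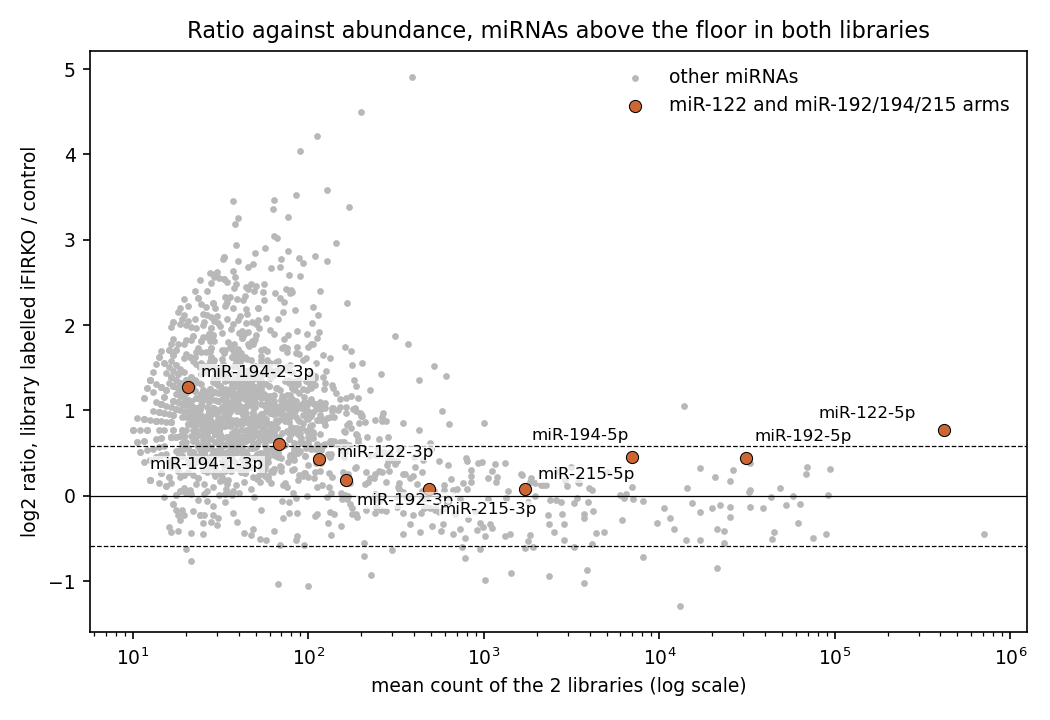
Log2 ratio of the iFIRKO-labelled library to the control-labelled library (vertical axis) against the mean count of both libraries (horizontal log axis) for miRNAs above the floor in both, with the arms of miR-122 and miR-192, miR-194 and miR-215 in orange and dashed lines at 1.5-fold. Among miRNAs over 1000 counts, miR-122-5p, miR-194-5p and miR-192-5p lie at the upper edge, with log2 ratios of 0.77, 0.46 and 0.45, and the rarer 3p arms lie within the grey cloud.

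Among 114 other miRNAs whose mean count reached 1000, those with the ratio nearest to miR-122-5p were miR-6377 (1.81), miR-328-3p (2.07) and miR-149-5p (1.31). Those nearest to miR-192-5p were miR-149-5p, let-7f-5p (1.30) and miR-151-3p (1.30). With 2 libraries this likeness rests on a single ratio for each miRNA.

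The level of the members depended on the scaling. With miR-148a-3p as the reference the ratio was 1.47 for miR-122-5p, 1.17 for miR-192-5p, 1.18 for miR-194-5p and 0.908 for miR-215-5p. The study chose this reference from its miRNA sequencing data and used it, or a spike-in control, for quantitative RT-PCR of serum EVs. miR-148a-3p is itself on the list of other liver miRNAs below, with a ratio of 1.16. TMM scaling takes a mean that leaves out the lowest and highest log2 ratios, and here it lowers every log2 ratio by a shift of 0.85. Most miRNAs over 1000 counts lay in the trimmed lower end, with an upper quartile of 0.15 against a lower quartile of 0.41 over all miRNAs. With this scaling 8 of the 9 members, all but miR-194-2-3p, were below 1. miR-122-5p was then at 0.944, miR-192-5p at 0.755, miR-194-5p at 0.759 and miR-215-5p at 0.585, 0 members lay above 1.5-fold, and 3 lay more than 1.5-fold below 1. Over all miRNAs, the same scaling changed 1225 higher and 56 lower to 388 higher and 360 lower. The statement that a member was higher thus holds for its share of the library, whereas the proportions between members hold under every scaling.

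**Figure D4:**
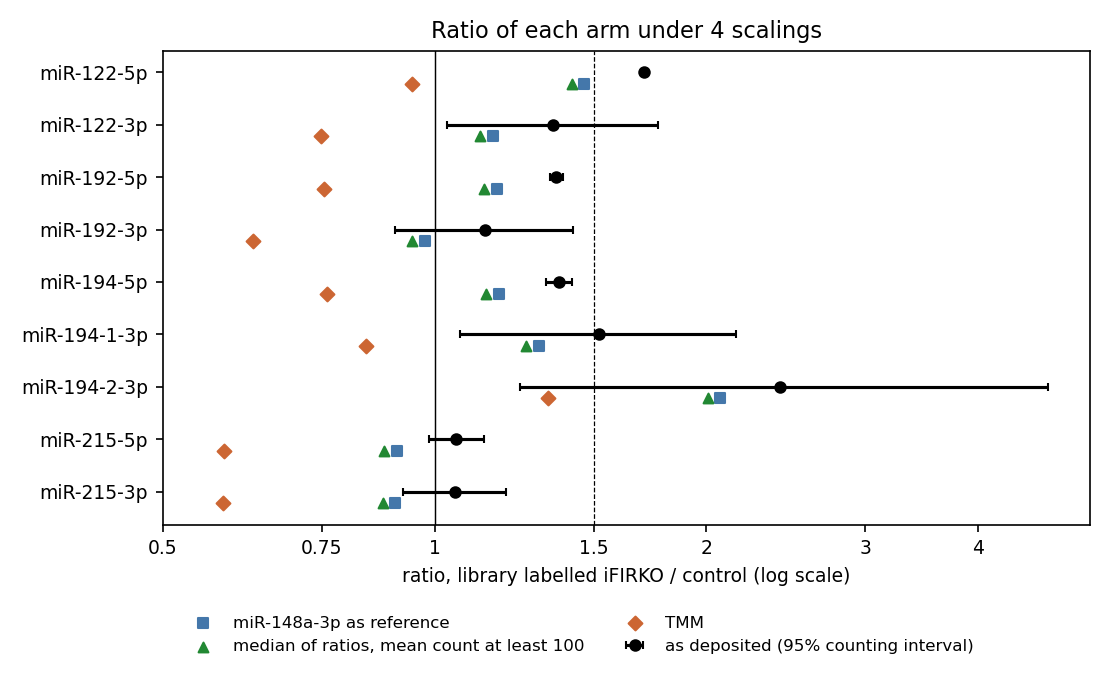
Ratio of each arm between the iFIRKO-labelled library and the control-labelled library (horizontal log axis) as deposited, with 95% intervals of counting error in black, and under 3 other scalings as coloured marks, with lines at 1 and 1.5. TMM scaling puts 8 of the 9 arms below 1, from 0.583 for miR-215-3p to 0.944 for miR-122-5p, while the order of the arms is the same under each scaling.

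Fisher's exact test on the recovered counts against the rest of each library, with Benjamini-Hochberg adjustment over 1736 miRNAs above the floor in both, called 6 of the 9 members higher and 0 lower, against 60.5% and 4.84% of all miRNAs tested. The members not called were miR-192-3p and both arms of miR-215. The calls set 1 library against the other and say nothing of the spread between mice.

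Other miRNAs of liver, epithelium and blood cells were set beside the members. Of 7 other miRNAs that the liver expresses, 5 were higher and 2 lower, with a median log2 ratio of 0.12. Over all miRNAs 88.1% were higher, as were 40.7% of those over 1000 counts, so these directions are not a result about the list. Only miR-802-3p of the 7 was past 1.5-fold, in a class (10 to 100 counts) in which 76.7% were over 1.5-fold higher. It had 41 and 55 counts and a ratio of 2.29 (95% interval 1.5 to 3.52). Its other arm miR-802-5p, which is known from liver and pancreas, had 356 counts (93.2 CPM) and 269 counts (120 CPM), giving a ratio of 1.29 (95% interval 1.10 to 1.52), and miR-148a-3p had a ratio of 1.16 (95% interval 1.14 to 1.19). miR-22-3p, which many tissues express, was lower, with a ratio of 0.746 (95% interval 0.714 to 0.779). The 5 miRNAs of the miR-200 family, which mark epithelia including those of intestine and kidney, were all lower on the deposited scale (median log2 ratio -0.33), and summed to 0.120% and 0.102% of the libraries. The intervals of miR-200a-3p and miR-200c-3p included 1. All of the 5 but miR-141-3p lay in the class of 100 to 1000 counts, in which 236 miRNAs were higher and 66 lower.

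Markers of red blood cells moved the other way from miR-122-5p. All 7 erythroid arms (miR-451a and the arms of miR-144, miR-486a and miR-486b) were lower in the iFIRKO-labelled library, from a ratio of 0.409 (miR-451a) to 0.760 (miR-144-5p), 4 of them past 1.5-fold, and their sum went from 4.75% to 3.22% of the library. miR-16-5p went from 26.0% to 19.1%. The 5 leukocyte miRNAs were lower as well on the deposited scale, from 0.799 (miR-223-3p) to 0.964 (miR-142a-5p), with a sum of 4.86% and 4.21%. The intervals of miR-142a-5p and miR-155-5p included 1. With totals taken without the members, the median log2 ratio of these 5 was -0.02. These directions, erythroid and leukocyte, are among those that exchanged labels would turn round. The miRNAs over 1000 counts hold all of the erythroid and leukocyte lists but miR-144-5p and miR-155-5p. Of these 118 miRNAs 70 were lower, and 9.32% were over 1.5-fold lower, against 3.03% of all miRNAs. None of the defining markers of these lists was at the floor. When library totals were taken without the 7 erythroid arms and miR-16-5p, the ratio of miR-122-5p was 1.52, that of miR-192-5p 1.22 and that of miR-194-5p 1.23. Which tissue released the members is not recorded in the counts, and the part of blood cell RNA in the ratios was not tested beyond this. A share cannot tell more vesicles of a source from more of its miRNA per vesicle, or from fewer vesicles of the others. The share outside miR-122-5p fell from 89.1% to 81.3%, giving a ratio of 0.913.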

How the data were processed

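Libraries were built from serum EV RNA with the QIAseq miRNA Library Kit, sequenced on a NextSeq500 and analysed by the authors on the GeneGlobe Data Analysis Center. Per the labels the build was mm10. The aligner, the miRNA release and the use of molecular identifiers are not given in the sources used here. The deposited signal, 1 value per miRNA, was a whole count divided by a constant per library: 100% of values were whole within 0.01 counts. It summed to 99.3% and 99.1% of 1.

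Ratios used the deposited scale with no pseudocount. Intervals were Clopper-Pearson for ratios between libraries, exact binomial for shares of a hairpin, conditional exact for ratios of ratios and Wilson for levels (scipy 1.17.1). TMM factors came from edgeR 4.0.16 in R 4.3.3. Scripts were tested on simulated data. All 9 members were named, with 4 lists of other miRNAs, miR-148a-3p and the 3 miRNAs nearest in ratio to miR-122-5p and to miR-192-5p. miR-16-5p and the other miRNAs next in rank were named after their values were seen. The members and lists were chosen with earlier results of these data known. Alternatives were 6 scalings, filters, a 2-fold threshold, 1 CPM added and the floor at 10 counts. The sequences of Mir122 are not reported here.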

Additional observations from a re-analysis of the deposited data

How the results depend on the processing

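With 1 library per group no library could be left out. No paired analysis was possible because the groups hold 1 library apiece. The median log2 ratio of the members was 0.18 with the median of ratios, 0.23 relative to miR-148a-3p, 0.28 without erythroid miRNAs and miR-16-5p, 0.59 with totals without the members, and -0.41 with TMM scaling. Of the members whose deposited interval excluded 1, TMM turned miR-122-3p (0.748), miR-192-5p (0.755), miR-194-5p (0.759), miR-194-1-3p (0.841) and miR-122-5p (0.944) below 1. It also put miR-192-3p (0.629), miR-215-5p (0.585) and miR-215-3p (0.583), whose deposited intervals included 1, below 1. Of the members, only miR-194-2-3p, with 17 and 24 counts, was over 1.5-fold higher with miR-148a-3p and with the median of ratios. It was also the only member past a 2-fold threshold. With a minimum mean count of 100, which leaves fewer members, only miR-122-5p was over 1.5-fold higher. miR-122-5p was at 1.47 with miR-148a-3p and at 1.42 with the median of ratios. With totals without the members 5 were over 1.5-fold higher, and with TMM 0 were higher and 3 lower. Among all miRNAs, TMM gave 388 higher and 360 lower. The lower ones numbered 113 with the median of ratios, 102 relative to miR-148a-3p, 89 without erythroid miRNAs, 24 with a minimum mean count of 10 and 21 above the floor in both libraries. A 2-fold threshold left 794 higher, and a minimum mean count of 100 kept 145 higher and 18 lower. In the order median of ratios, TMM, miR-148a-3p, the list medians were -0.59, -1.18 and -0.55 for epithelium and -1.13, -1.72 and -1.08 for the erythroid list. They were -0.44, -1.02 and -0.39 for leukocytes. For the other liver miRNAs they were -0.14, -0.73 and -0.10, against 0.12 on the deposited scale. Without erythroid miRNAs the list medians were -0.49 (epithelium), -1.03 (erythroid), -0.33 (leukocyte) and -0.04 (other liver). With totals without the members they were, in the same order, -0.18, -0.72, -0.02 and 0.27. These shifts follow from 1 factor applied to every miRNA. Setting the floor to 10 counts changed no arm ratio, since no member was at it. Depth limits the passengers of miR-194 most, with 17 to 72 counts each.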
